A study of Mus musculus with 16 samples.

Results

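The genes described here are the colony-stimulating factors Csf1, Csf2 and Csf3, the interleukin-6 family ligands Il6, Il11 and Lif, their shared receptor chain Il6st and the inhibitor Socs3. They were chosen by gene name: all non-control probes named for 1 of these 8 genes were taken, which gave 10 probes, 3 of them for Csf1, out of 55681 non-control probes on the array. The 8 genes stand among 22644 genes that were tested, and all 10 probes passed the filter on dim signal. The cells were primary lung fibroblasts of the mouse, which had gone through no fewer than 3 passages and were harvested at 48 hours after siRNA transfection. The siLox group received siRNA against Lox, the siLoxL1 group against Loxl1, the siLoxL2 group against Loxl2 and the scr group a scrambled control siRNA, with 4 arrays per group, and all 16 samples were transfected cells. The title of the series speaks instead of exogenous expression of these genes, and the groups are taken here from the sample labels. No mouse strain, sex, age or untransfected sample is given in the labels, and nothing says whether the 4 samples of a group came from separate animals or cultures, so p-values measure the spread between these samples, which may be technical.

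Csf1 encodes M-CSF, which sustains macrophages, Csf3 encodes G-CSF, which drives neutrophil production, and Csf2 encodes GM-CSF, which acts on several myeloid lineages and is needed in the lung for alveolar macrophages to mature. IL-6, IL-11 and LIF each bind a receptor of their own that pairs with gp130, the product of Il6st. Paired gp130 activates JAK kinases, which phosphorylate STAT3, and STAT3 induces Socs3, whose product binds gp130 and its JAK kinases and shuts the signal off. Lung fibroblasts are a known source of several of these ligands.

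Csf1 was read by 3 probes, which lie in different stretches of what the array calls 2 transcripts. The starts of their sequences are shown because the probes did not move alike between slides, as described below, and capitals are not used since no base is singled out. The first probe belongs to transcript NM_007778 and lies at chr3:107544333-107544392, and the other two belong to NM_001113530 and lie at chr3:107548550-107548609 and chr3:107548521-107548580, on the minus strand of mm9. The NM_001113530 probes share 31 bases, so they are not independent readings. The first 30 bases of each are:
Csf1 NM_007778: tgtggggcttacttagccttctggttacag
Csf1 NM_001113530, first probe: cgtgcagattaagatcacattagttttaac
Csf1 NM_001113530, second probe: cagctgcatcatatattgtcatatgttgag

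Upstream sequence is shown for the members whose 250 bases before the transcript start held a searched motif, in capitals where it matched. RefSeq (GRCm38.p6) gave 8 windows for 7 of the 8 members. The motifs were NF-kB (GGGANTTCC), STAT (TTCNNNGAA) and AP-1 (TGANTCA), each searched on both strands, where STAT and AP-1 read the same on either strand and no 2 matches overlapped. AP-1 matched in 1 window each of Il6, Il11 and Lif, beginning 249, 98 and 228 bases before the start, and STAT matched in Socs3, beginning 154 bases before it. Of 32851 windows of the same length, 6.75% held AP-1, 7.02% STAT and 1.43% NF-kB, which matched in 0 of the 8 windows; kB sites of other letters or lengths were not searched for. The windows lie at chr5:30012864-30013113 (plus strand, Il6), chr7:4778142-4778391 (minus strand, Il11), chr11:4257318-4257567 (plus strand, Lif) and chr11:117969367-117969616 (minus strand, Socs3).
Il6: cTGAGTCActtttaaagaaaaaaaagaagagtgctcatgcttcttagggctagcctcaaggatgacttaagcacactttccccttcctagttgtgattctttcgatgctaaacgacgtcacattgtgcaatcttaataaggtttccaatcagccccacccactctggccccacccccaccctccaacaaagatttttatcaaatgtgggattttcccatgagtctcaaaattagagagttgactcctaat
Il11: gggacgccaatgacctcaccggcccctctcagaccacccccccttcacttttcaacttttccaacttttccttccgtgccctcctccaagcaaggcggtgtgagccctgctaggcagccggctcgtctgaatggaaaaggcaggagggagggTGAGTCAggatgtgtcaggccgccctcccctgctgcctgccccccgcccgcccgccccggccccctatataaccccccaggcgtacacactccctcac
Lif: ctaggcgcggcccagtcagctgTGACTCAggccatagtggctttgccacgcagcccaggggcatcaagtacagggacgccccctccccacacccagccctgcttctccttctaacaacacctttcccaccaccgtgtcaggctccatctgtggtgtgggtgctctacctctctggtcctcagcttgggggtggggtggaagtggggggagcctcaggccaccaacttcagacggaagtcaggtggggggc
Socs3: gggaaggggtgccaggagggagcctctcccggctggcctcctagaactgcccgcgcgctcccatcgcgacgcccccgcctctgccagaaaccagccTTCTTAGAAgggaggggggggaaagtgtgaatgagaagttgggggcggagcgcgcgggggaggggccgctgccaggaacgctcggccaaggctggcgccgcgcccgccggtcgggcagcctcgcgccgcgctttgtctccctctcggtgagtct

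The siLox and scr arrays were on slide 1 and the siLoxL1 and siLoxL2 arrays on slide 2, so in a comparison of siLoxL1 or siLoxL2 with scr the slide and the siRNA cannot be told apart. On each slide a group filled 1 row of array positions, so row and group cannot be told apart either. Between 60.4% and 63.1% of the 59305 non-control spots rose well above background on slide 2, against 49.2% to 52.3% on slide 1, with 0 saturated spots. Lox was at 13.2% of its scr level in siLox, with a log2 fold change of -2.92 ± 0.31 (limma adjusted p = 0.00387), where Loxl2 was at 61.0% (adjusted p = 0.0282) and Loxl1 at 71.3% (adjusted p = 0.0395). Loxl1 was at 44.9% of its siLoxL2 level in siLoxL1 (adjusted p = 0.000223). Loxl2 was at 47.8% of its scr level in siLoxL2, but also at 59.0% in siLoxL1, and its difference between siLoxL1 and siLoxL2 (0.30 ± 0.08 on the log2 scale) did not pass (adjusted p = 0.0645), so a lower Loxl2 level in siLoxL2 rests on the comparison between slides. All 12 fibroblast markers were above background on all 16 arrays, and of 10 epithelial markers Epcam, Cdh1, Sftpc, Sftpb and Nkx2-1 were on 0 arrays, while Krt8, Krt18 and Krt19 were on all 16, Scgb1a1 on all but 2 siLox arrays and Cldn3 on all slide 2 arrays. Of 19 leukocyte and macrophage markers 16 to 18 were above background on all 4 arrays of a group, with Ptprc, Marco and Adgre1 among them and Spi1 above background on 0 arrays.

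Levels are log2 processed signals minus each array's 75th percentile, and a level of 1 probe is not set against that of another. In siLox cells, set against scr cells, the gp130 ligands Il6, Il11 and Lif were higher, Il6st and Socs3 were lower, and Csf1 did not pass the test. Csf2 and Csf3 were higher on average but did not pass. Of the 10 member probes 5 passed limma at an adjusted p under 0.05 over all 32430 probes tested, 3 higher and 2 lower, where 21.1% of all probes passed (9.67% higher and 11.5% lower). At 7 of the 10 probes siLox and scr did not overlap, against 28.7% of all probes. The median log2 fold change was 0.34 over the 10 probes and -0.05 over all probes. Without a single library, 1 to 7 member probes passed: 1 probe, that of Il6, without siLox replicate 1, siLox replicate 2, siLox replicate 3 or scr replicate 3, and 7 without scr replicate 4. In bulk samples, fewer cells of a type and less RNA per cell cannot be told apart.

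**Figure D1:**
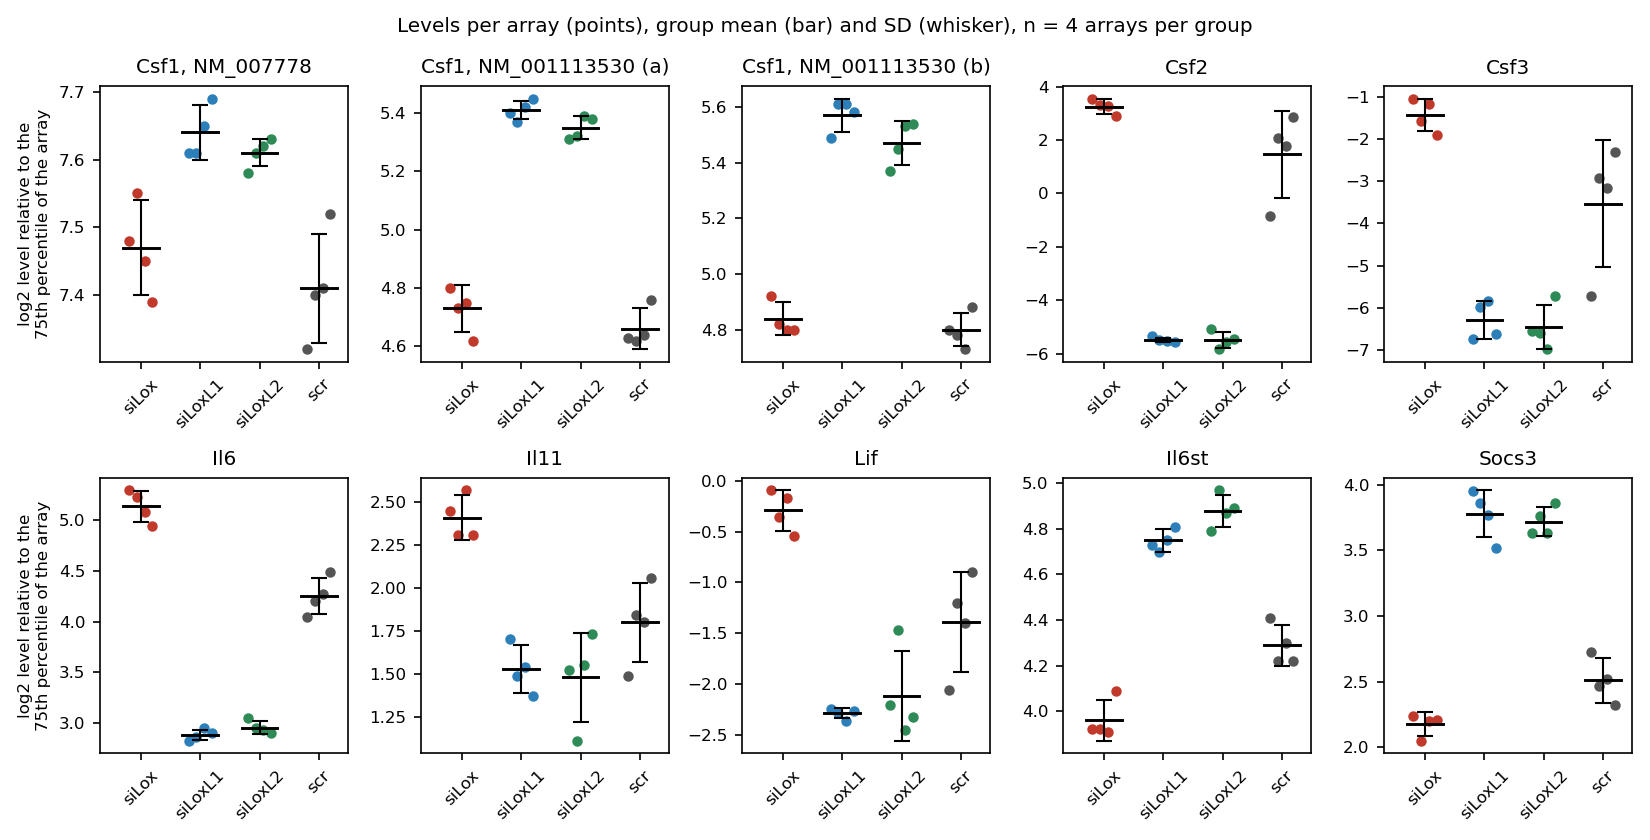
Level of each member probe on each array, in log2 units over that array's 75th percentile, with points for arrays, bars for the group mean and whiskers for the SD (n = 4 arrays per group; each panel has its own vertical axis). The Csf1 panels marked (a) and (b) are the NM_001113530 probes. Csf2 lay between 2.88 and 3.55 in siLox, between -5.57 and -5.35 in siLoxL1, between -5.83 and -5.08 in siLoxL2 and between -0.86 and 2.87 in scr.

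Among the colony-stimulating factors, Csf2 (chr11:54060772-54060799 in mm9 as annotated, minus strand) was read by 10 spots. Its levels were 3.55, 3.29, 3.28 and 2.88 in siLox, against -0.86, 2.06, 1.77 and 2.87 in scr. The 4 siLox arrays were close together, while scr replicate 1 was far below the other scr arrays and scr replicate 4 lay 0.02 under the lowest siLox array. The log2 fold change was 1.80 ± 0.73 (SE), with a 95% interval of 0.11 to 3.48 and an adjusted p of 0.11 by limma, and the exact two-sided permutation p was 0.0286, the smallest that 4 against 4 arrays allow. The SD of Csf2 over the scr arrays was 1.62, rank 16 of 32430 probes, against 0.28 over the siLox arrays. The spots of an array differed little at this probe, with an SD of 0.02 to 0.04 in siLox and 0.04 to 0.11 in scr, so the spread between the scr arrays was far above that between spots.

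Csf3 (chr11:98564614-98564673, plus strand) had levels of -1.05, -1.58, -1.18 and -1.91 in siLox, against -5.71, -2.93, -3.16 and -2.31 in scr. It was above background on all 4 siLox arrays and on 3 of 4 scr arrays, replicate 1 being the exception. Csf3 thus shared with Csf2 the low value of scr replicate 1 and the scr array nearest to siLox, replicate 4. The log2 fold change was 2.09 ± 0.69 and did not pass (limma adjusted p = 0.0644), with no overlap between the groups, and its scr SD of 1.50 was rank 33 of 32430. Csf2 passed without scr replicate 4 (2.26, adjusted p = 0.0484) but not without scr replicate 1 (1.02, adjusted p = 0.0598), and Csf3 passed without scr replicate 4 (2.50, adjusted p = 0.0341) and without scr replicate 1 (1.37, adjusted p = 0.0309). With normexp background correction both passed, Csf2 at 1.72 (adjusted p = 0.0453) and Csf3 at 1.01 (adjusted p = 0.00757), as they did in 1 fit of all 16 arrays (adjusted p = 0.0194 and 0.00945).

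Csf1 showed no such spread. At the NM_007778 probe, read by 10 spots, its levels were 7.48, 7.55, 7.45 and 7.39 in siLox, against 7.32, 7.40, 7.41 and 7.52 in scr. The groups overlapped at all 3 Csf1 probes, and the log2 fold changes of 0.05 ± 0.07, 0.06 ± 0.07 and 0.04 ± 0.06 did not pass (limma adjusted p = 0.595, 0.518 and 0.686). The 95% intervals of the difference ran from -0.10 to 0.21 at the NM_007778 probe and from -0.09 to 0.22 and -0.10 to 0.18 at the NM_001113530 probes.

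Among the gp130 ligands, Il6 (chr5:30346367-30346426, plus strand, 2 spots) had levels of 5.29, 5.22, 5.07 and 4.94 in siLox, against 4.04, 4.20, 4.27 and 4.49 in scr. The lowest siLox array was 0.46 above the highest scr array. The rise of 0.88 ± 0.12, or 1.84-fold, passed (limma adjusted p = 0.00708), and it passed without any 1 of the 8 arrays. Il6 was the 1 member probe for which this held.

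Il11, a gp130 ligand known to act on fibroblasts (chr7:4724847-4724906, minus strand), had levels of 2.45, 2.31, 2.57 and 2.31 in siLox, against 1.49, 1.84, 1.80 and 2.06 in scr. Lif, a gp130 ligand that signals through Lifr (chr11:4172032-4172091, plus strand), had levels of -0.09, -0.36, -0.17 and -0.54 in siLox, against -2.06, -1.20, -1.40 and -0.90 in scr. Neither gene overlapped between the groups, and in both scr replicate 1 was lowest and scr replicate 4 highest of the scr arrays. Il11 rose by 0.61 ± 0.13, 1.53-fold (limma adjusted p = 0.02), and Lif by 1.10 ± 0.24, 2.14-fold (adjusted p = 0.0221). Without siLox replicate 1, 2 or 3 or without scr replicate 3 neither passed, with values of 0.56 to 0.65 for Il11 (adjusted p = 0.0505 to 0.0598) and 1.03 to 1.12 for Lif (adjusted p = 0.0587 to 0.0635).

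Il6st, the gp130 receptor chain (chr13:113296586-113296645, plus strand), moved the other way. Its levels were 3.92, 3.92, 3.91 and 4.09 in siLox, against 4.41, 4.22, 4.30 and 4.22 in scr, with no overlap. It fell by 0.33 ± 0.07 on the log2 scale, to 79.6% of the scr level (limma adjusted p = 0.0241). It did not pass without siLox replicate 1, 2 or 3 or scr replicate 3 (adjusted p = 0.0636 to 0.072), nor without the filter on dim probes (adjusted p = 0.0648).

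Socs3, the STAT3-induced inhibitor (chr11:117827480-117827539, minus strand), had levels of 2.24, 2.05, 2.20 and 2.21 in siLox, against 2.73, 2.47, 2.52 and 2.32 in scr. All siLox arrays lay below all scr arrays, by as little as 0.08. The fall of 0.33 ± 0.10, to 79.4% of the scr level, was close to the threshold (limma adjusted p = 0.0456). It did not pass with normexp background (-0.22, adjusted p = 0.204), quantile normalization (adjusted p = 0.0572), the authors' deposited table (adjusted p = 0.0567) or no filter on dim probes (adjusted p = 0.103), nor without any 1 array other than scr replicate 4.

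**Figure D2:**
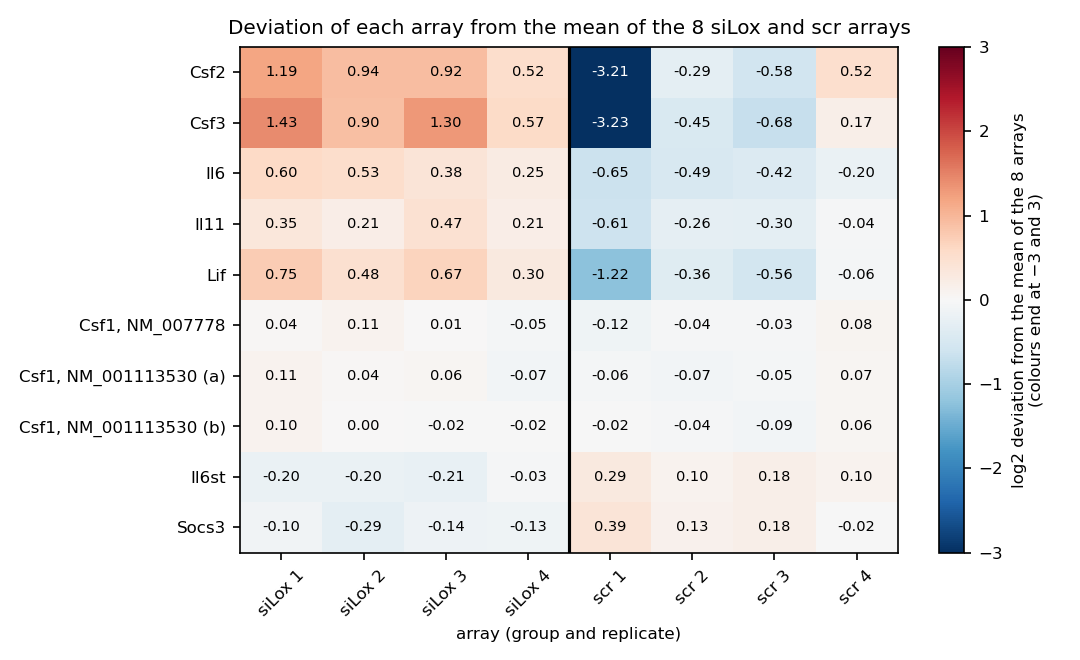
Deviation of each siLox and scr array from the mean of the 8 arrays, by member probe, in log2 units, red above and blue below the mean. The array scr 1 is lowest for Csf2, Csf3, Il6, Il11 and Lif and highest for Il6st and Socs3, and scr 4 is the scr array nearest to siLox for the 5 ligand genes other than Csf1.

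The same scr arrays therefore stood at the ends for several members. Replicate 1 had the lowest and replicate 4 the highest level of Csf2, Csf3, Il6, Il11 and Lif, and for Socs3 replicate 1 was highest and replicate 4 lowest. The summed linear level of the 19 leukocyte and macrophage markers was 36.5 to 45.3 in siLox and 29.4 to 42.8 in scr, lowest in replicate 1 and highest in replicate 4 of both groups. In scr these are also the lowest and highest arrays of the 5 ligand genes, and of Csf1 at the NM_007778 probe. Between these ends, scr replicate 3 was above replicate 2 in the marker sum, in Il6 and in Csf1 at that probe. For Csf2, Csf3, Il11 and Lif it was below replicate 2. In siLox, by contrast, Csf2, Csf3, Il6 and Lif were highest in replicate 1 and lowest in replicate 4, and Il11 was highest in replicate 3. Of 18 such markers tested, 2 were higher in siLox, Marco by 1.08 and Mrc1 by 0.65, and 0 lower, where 22.4% of all genes passed. The summed level of the 12 fibroblast markers was 881 to 1150 in siLox and 1250 to 1350 in scr, with 5 of 12 lower. Of 8 mesothelial markers 4 were lower and 1 higher, with a summed level of 16.1 to 17.6 in siLox and 17.2 to 18.0 in scr, and of 5 epithelial markers 1 was higher, Krt19, which both lists hold. The part of these differences in the member results was not tested.

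The siLoxL1 group, set against the siLoxL2 group on the same slide, gave no member that passed. By limma 0 of 10 member probes had an adjusted p under 0.05, with 1 at an unadjusted p under 0.05, where 6.73% of all probes passed. In this comparison 0 of 10 probes had groups that did not overlap, against 19.0% of all probes. Il6st came nearest, with levels of 4.73, 4.70, 4.75 and 4.81 in siLoxL1, against 4.79, 4.97, 4.87 and 4.89 in siLoxL2. Its difference was -0.13 ± 0.05 (limma adjusted p = 0.148), and it passed with quantile normalization alone (-0.20, adjusted p = 0.0489).

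For the other members the 95% interval of siLoxL1 minus siLoxL2 bounds the log2 difference. For Il6, with levels of 2.83, 2.87, 2.96 and 2.91 in siLoxL1, against 3.05, 2.96, 2.94 and 2.91 in siLoxL2, it ran from -0.18 to 0.04. For Socs3, with 3.95, 3.86, 3.77 and 3.52 in siLoxL1, against 3.63, 3.76, 3.63 and 3.86 in siLoxL2, it ran from -0.17 to 0.28. For Il11, with 1.70, 1.49, 1.54 and 1.37 in siLoxL1, against 1.52, 1.11, 1.55 and 1.73 in siLoxL2, it ran from -0.25 to 0.36. The intervals of Il6 and Socs3 were narrower than those of Lif (-0.62 to 0.27) and Csf3 (-0.53 to 0.86). Lif had levels of -2.25, -2.29, -2.37 and -2.27 in siLoxL1, against -2.21, -1.47, -2.45 and -2.33 in siLoxL2, where replicate 2 was high. Csf1 differed by 0.03 ± 0.04, 0.06 ± 0.04 and 0.10 ± 0.05 at its 3 probes.

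Csf2 had levels of -5.35, -5.49, -5.52 and -5.57 in siLoxL1, against -5.08, -5.83, -5.56 and -5.44 in siLoxL2, with an interval of -0.34 to 0.33. These values lay near the lowest level well above background on slide 2, which was -5.87 to -6.93. Csf2 was above background on all 4 siLoxL1 arrays and on 3 of 4 siLoxL2 arrays, where replicate 2 had 3 of its 10 spots well above background. The spots of an array then differed by an SD of 0.27 to 0.33 in siLoxL1 and 0.25 to 0.55 in siLoxL2. Csf3 was above background on 0 of 4 arrays in siLoxL1 (-6.74, -5.98, -5.83 and -6.61) and on 0 of 4 in siLoxL2 (-6.54, -6.60, -6.97 and -5.72), so its interval compares signals that were not well above background.

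Set against scr on the other slide, the siLoxL1 and siLoxL2 groups had lower Csf2, Csf3, Il6 and Lif and higher Il6st and Socs3. Csf1 was higher as well, but not at the NM_007778 probe with quantile normalization. Of 10 member probes 9 passed in siLoxL1 minus scr, 5 higher and 4 lower, beside 62.5% of all probes (40.5% higher and 22.0% lower), and 10 passed in siLoxL2 minus scr, 5 higher and 5 lower, beside 62.3% (38.8% higher and 23.5% lower). Between slides most probes of the array passed, which the members' counts have to be read against. The 2 comparisons share the scr arrays and the slide difference. Separate ranges were seen at 9 of 10 member probes in siLoxL1 minus scr (55.6% of all probes) and at 8 of 10 in siLoxL2 minus scr (54.9%). The median over all probes was 0.18 and 0.16 in these comparisons, against -0.16 in both with normexp background, and the share of higher probes among the calls was 64.8% and 62.3%, against 40.0% and 38.7% with normexp.

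**Figure D3:**
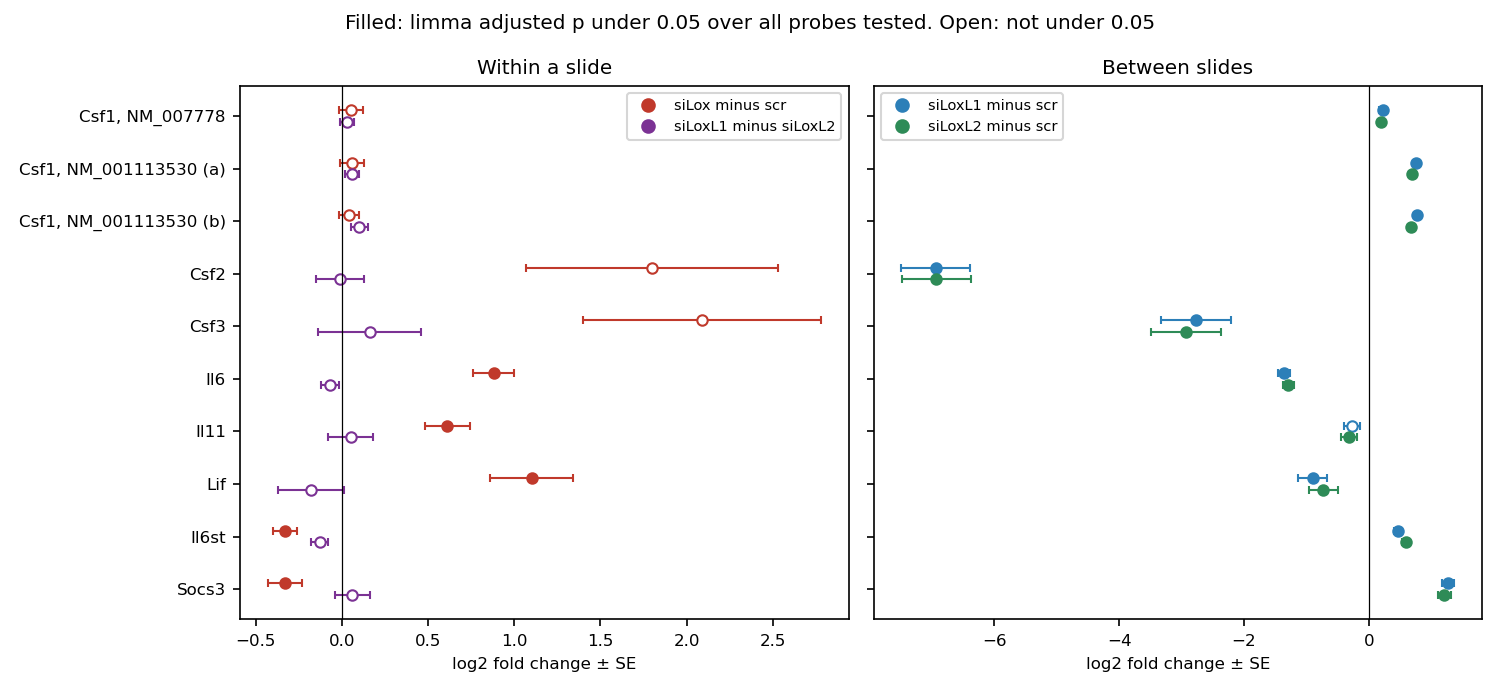
Log2 fold change of each member probe with its SE (whisker), within a slide on the left (siLox minus scr and siLoxL1 minus siLoxL2) and between slides on the right (siLoxL1 minus scr and siLoxL2 minus scr). Filled points had a limma adjusted p under 0.05 over all probes tested and open points did not; the axes of the panels differ. Csf2 is at -6.94 and -6.93 in the comparisons between slides and at 1.80, open, in siLox minus scr.

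Csf2 showed the widest difference of the members. It averaged -5.48 ± 0.09 in siLoxL1, -5.48 ± 0.31 in siLoxL2 and 1.46 ± 1.62 in scr (SD, n = 4 each). It fell by 6.94 ± 0.55 on the log2 scale in siLoxL1 (limma adjusted p = 7.96e-08) and fell by 6.93 ± 0.55 in siLoxL2 (adjusted p = 9.51e-08). These sizes rest on slide 2 signals near background: with normexp background they were -4.76 and -4.74, and without scr replicate 1 they were -7.71 in both. The lowest scr array, replicate 1, was 4.49 above the highest siLoxL1 array and 4.21 above the highest siLoxL2 array. Csf3, being above background on 0 arrays of slide 2, was at least 5.61-fold lower in siLoxL1 (adjusted p = 0.000629) and at least 6.09-fold lower in siLoxL2 (adjusted p = 0.000404), taking for each dim array the higher of its own level and the lowest level above background there. These bounds hold for this scaling and these arrays: the scr mean includes replicate 1, which was not above background, the measured log2 difference was -1.48 in both comparisons with normexp background, and without scr replicate 4 it was -2.36 in siLoxL1 and -2.52 in siLoxL2, against -2.77 and -2.93 with all arrays.

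Il6 averaged 2.89 ± 0.05 in siLoxL1, 2.96 ± 0.06 in siLoxL2 and 4.25 ± 0.18 in scr (SD, n = 4 each). It was at 39.0% of the scr level in siLoxL1 (-1.36 ± 0.09, limma adjusted p = 1.21e-08) and at 41.0% in siLoxL2 (-1.29 ± 0.09, adjusted p = 2.65e-08). Lif fell by 0.90 ± 0.23 in siLoxL1 (adjusted p = 0.00343), and fell by 0.73 ± 0.23 in siLoxL2 (adjusted p = 0.0134), where siLoxL2 replicate 2 overlapped the scr arrays and the 8 arrays of the pair alone gave an adjusted p of 0.0632. Il11 did not pass in siLoxL1 (-0.27 ± 0.13, adjusted p = 0.0934) but passed there without scr replicate 1 (-0.37, adjusted p = 0.0233) and with quantile normalization (-0.37, adjusted p = 0.0284). There it passed in 1 of 8 fits without 1 array, with values of -0.37 to -0.18 (adjusted p = 0.0233 to 0.258). It passed in 2 of 6 other settings, with values of -0.37 to -0.13 (adjusted p = 0.0278 to 0.332). In siLoxL2 Il11 was at the threshold (-0.32 ± 0.13, adjusted p = 0.0498) with overlapping groups, and it did not pass without siLoxL2 replicate 1, 2 or 3 or scr replicate 2, 3 or 4 (adjusted p = 0.0632 to 0.172). Nor did Il11 pass in siLoxL2 with normexp background (-0.16, adjusted p = 0.233) or on the 8 arrays of the pair alone (adjusted p = 0.117).

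Il6st averaged 4.75 ± 0.05 in siLoxL1, 4.88 ± 0.07 in siLoxL2 and 4.29 ± 0.09 in scr. It was higher by 0.46 ± 0.06 (limma adjusted p = 1.29e-05) and 0.59 ± 0.06 (adjusted p = 1.13e-06), or 0.28 and 0.44 above the median of all probes, and by 0.21 and 0.41 with quantile normalization (adjusted p = 0.00794 and 4.5e-05). Socs3 averaged 3.78 ± 0.18 in siLoxL1, 3.72 ± 0.11 in siLoxL2 and 2.51 ± 0.17 in scr. It was 2.41-fold higher in siLoxL1 (1.27 ± 0.10, adjusted p = 7.37e-08) and 2.32-fold higher in siLoxL2 (1.21 ± 0.10, adjusted p = 1.38e-07). In siLox both genes were below scr, and on slide 2 both were above it.

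The Csf1 probes separated between the slides. The NM_007778 probe was higher by 0.22 ± 0.05 in siLoxL1 (limma adjusted p = 0.00121) and by 0.19 ± 0.05 in siLoxL2 (adjusted p = 0.00342), close to the median of all probes, and with quantile normalization its sign turned (-0.08 and -0.06). The NM_001113530 probes had levels of 5.37 to 5.45 and 5.49 to 5.61 in siLoxL1, of 5.31 to 5.39 and 5.37 to 5.54 in siLoxL2, and of 4.62 to 4.76 and 4.73 to 4.88 in scr. They were higher by 0.75 ± 0.05 and 0.77 ± 0.05 in siLoxL1, and by 0.69 ± 0.05 and 0.67 ± 0.05 in siLoxL2, with no overlap. With quantile normalization the values in siLoxL1 were 0.47 and 0.50. The mean of the NM_001113530 probes minus the NM_007778 probe on the same array does not depend on the scaling by percentile. This gap was -2.15 ± 0.02 in siLoxL1, -2.20 ± 0.04 in siLoxL2, -2.69 ± 0.07 in siLox and -2.68 ± 0.05 in scr (SD, n = 4 each). The gap in siLoxL1 differed from that in scr by 0.54 and the gap in siLoxL2 by 0.48 (exact two-sided permutation p = 0.0286 each), while siLox differed from scr by 0.00 (exact p = 0.971). Whether slide or siRNA goes with this difference cannot be told apart.

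By the order of group means, Csf2, Csf3, Il6, Il11 and Lif were highest in siLox, then in scr, and lowest on slide 2, while Il6st and Socs3 were highest on slide 2, then in scr, and lowest in siLox. For none of the members did siLoxL1 and siLoxL2, the neighbours in each order, differ beyond the test. For Csf2 and Csf3 the neighbours siLox and scr did not differ beyond it either, nor did siLoxL1 and scr for Il11. Csf1 was highest on slide 2 at all 3 probes, with siLox and scr below and not separated. At the NM_007778 probe the difference of slide 2 from scr turned sign with quantile normalization.

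The receptors and transducers on which these ligands act were measured with the brightest probe of each gene, where 22.4% of all genes passed in siLox minus scr. Unlike the member probes, the listed pathway genes were not examined with 1 array left out or with the other settings. Of 5 colony-stimulating factor receptor genes, 1 was higher in siLox and 0 lower. That gene was Csf2ra, the GM-CSF receptor alpha chain, which averaged 2.85 ± 0.03 in siLox and 2.31 ± 0.20 in scr (0.54 ± 0.10, limma adjusted p = 0.0164). Of 6 IL-6 family receptor genes 0 were higher and 1 lower, the IL-11 receptor gene Il11ra1, at 3.86 ± 0.13 in siLox and 4.33 ± 0.21 in scr (-0.48 ± 0.12, adjusted p = 0.0317). Of 7 further ligand genes that could be tested 0 passed in either direction by limma. Among them Cntf, ciliary neurotrophic factor, had -0.04 ± 0.10 and Clcf1, cardiotrophin-like cytokine, 0.27 ± 0.10. Osm, Il31, Il3 and Il5, the receptor gene Il31ra and the target genes Fgg and Steap4 were not above background on all 4 arrays of any group and were not tested, and Il11ra2 was not analysed here.

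Of 9 JAK and STAT transducer genes 3 were lower in siLox and 0 higher. Stat3, the main transducer of gp130, fell by 0.44 ± 0.13 (limma adjusted p = 0.0471), with -0.28 at another probe. The kinase gene Jak2 (-0.46 ± 0.11) and Stat5b (-0.23 ± 0.07) were lower. Of 10 feedback inhibitor genes 2 were higher, Socs5 (0.53 ± 0.07) and Socs2 (0.52 ± 0.12), and 1 was lower, Socs1 (-0.37 ± 0.10).

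Of 22 genes listed as known targets of STAT3 or gp130, 8 were higher in siLox and 3 lower, with a median of 0.18 beside -0.05 over all genes. Among those that passed, the furthest up were Junb, an AP-1 subunit (1.08 ± 0.28, limma adjusted p = 0.0354), Bcl3, a co-regulator of NF-kB (0.91 ± 0.23, adjusted p = 0.0338), Saa3, an acute phase gene (0.86 ± 0.22, adjusted p = 0.0331), and the kinase gene Pim1 (0.82 ± 0.22, adjusted p = 0.038), while Icam1, at 1.70 ± 0.55, did not pass (adjusted p = 0.0632). The 3 lower genes were Mcl1 (-0.49 ± 0.07, and -0.04 at another probe), Il4ra (-0.42 ± 0.10) and Hif1a (-0.39 ± 0.11). Lbp, at -1.13 ± 0.42, did not pass either (limma adjusted p = 0.0911). Several of the higher genes, Junb, Bcl3 and Saa3 among them, are also known to respond to other inflammatory signals. Socs3, a member of the same pathway, was lower in siLox, close to the threshold as given above. Signalling through gp130 or STAT3 was not measured, and the cause of these differences was not tested.

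**Figure D4:**
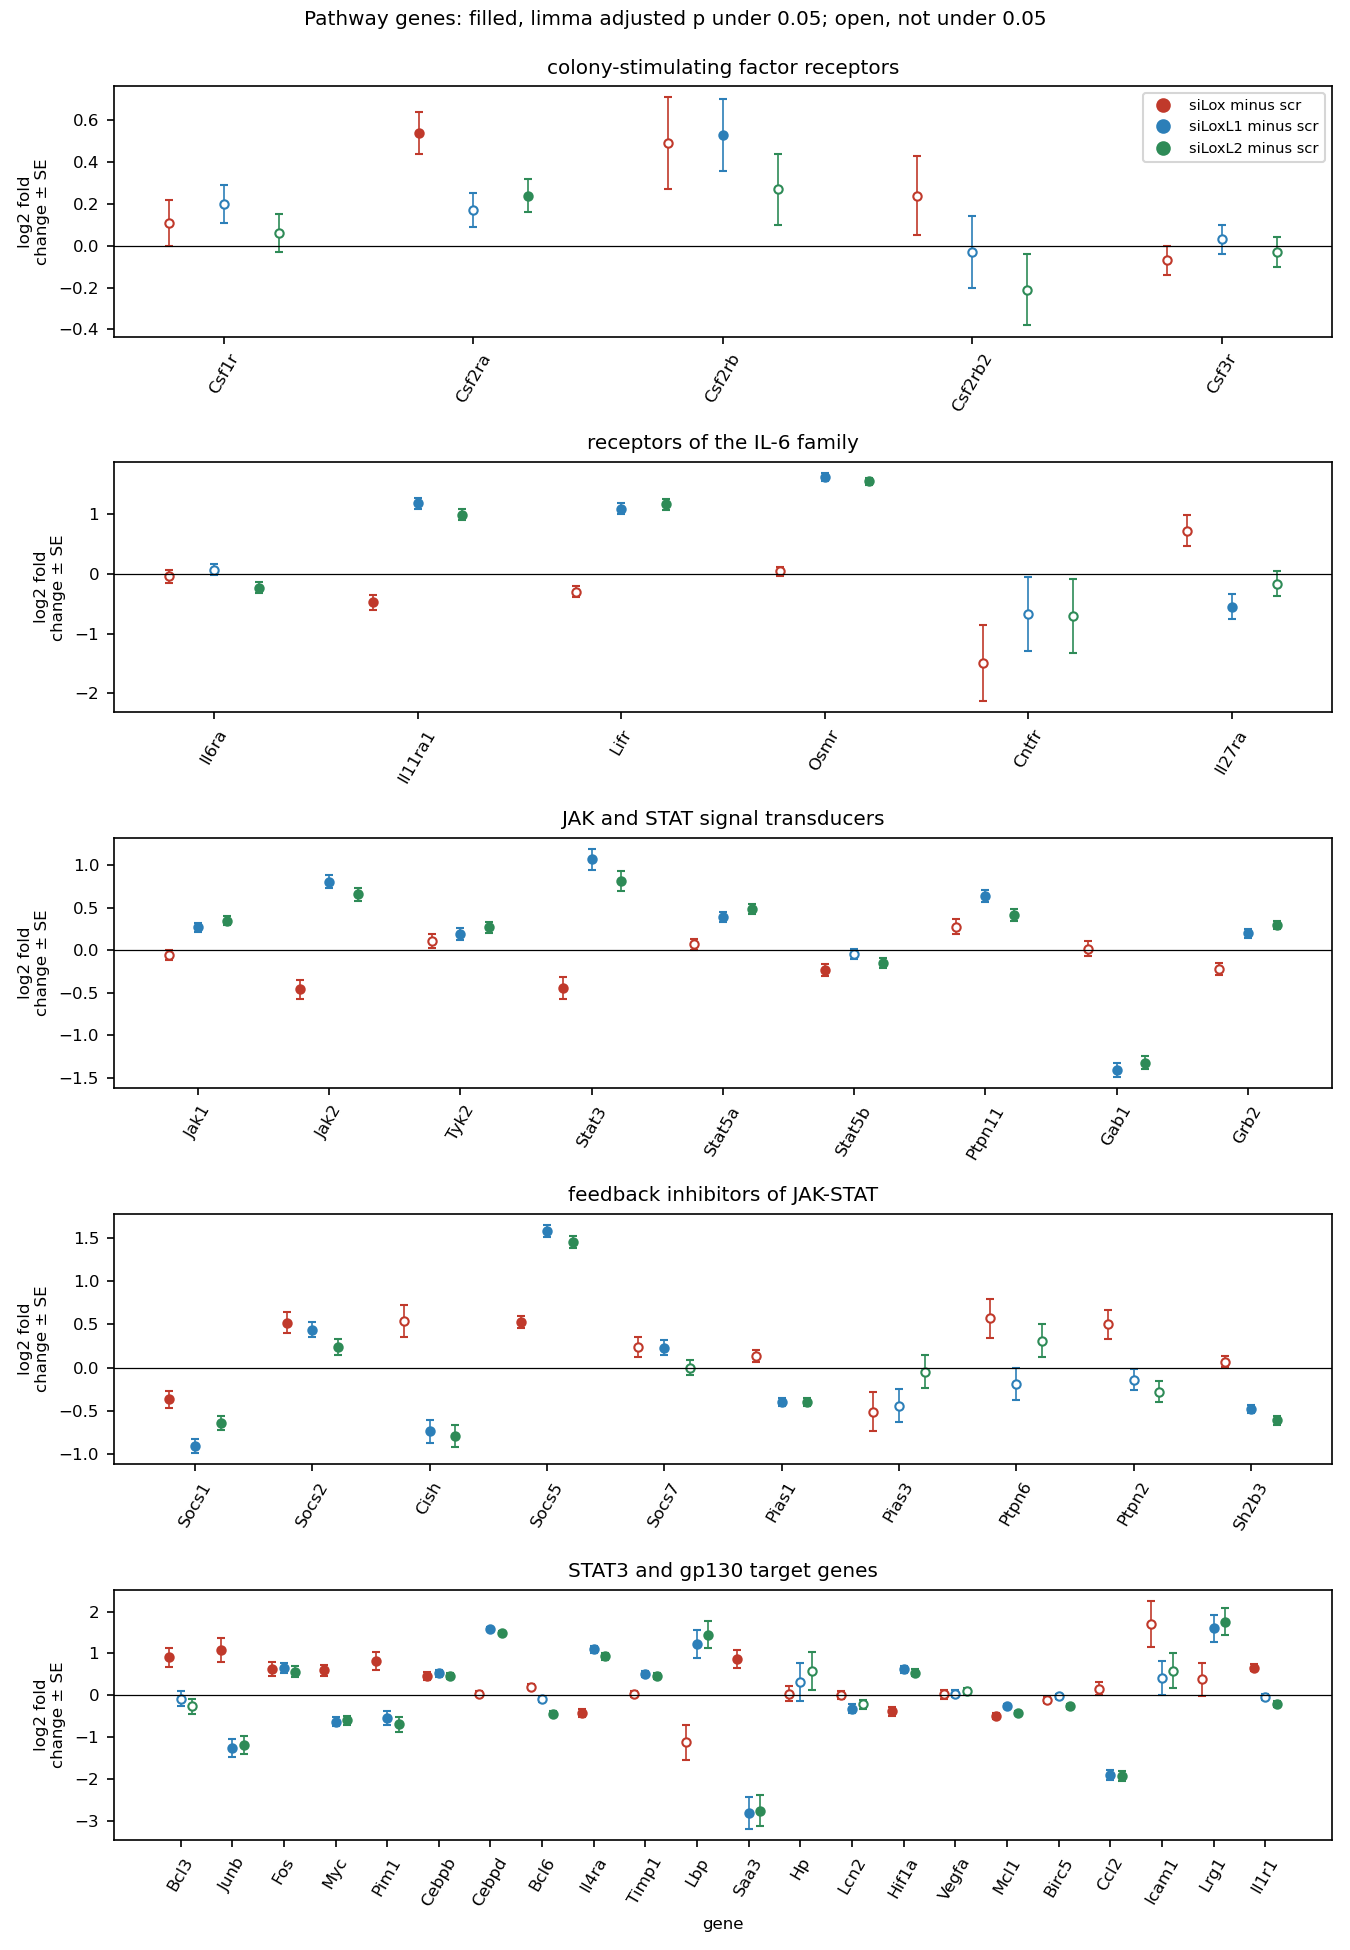
Log2 fold change with SE of pathway genes that were tested, by list, for siLox, siLoxL1 and siLoxL2 minus scr, with the brightest probe of each gene; siLoxL1 and siLoxL2 are on another slide than scr. Filled points had a limma adjusted p under 0.05 and open points did not; each panel has its own vertical axis. Osmr, Il11ra1 and Lifr are at 0.99 to 1.62 in the siLoxL1 and siLoxL2 comparisons.

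In the comparisons between slides, where 64.6% of all genes passed in siLoxL1 minus scr and 64.3% in siLoxL2 minus scr, 3 of 6 IL-6 family receptor genes were higher and 1 lower in each. Osmr, the oncostatin M receptor gene, was higher by 1.62 ± 0.06 in siLoxL1 and 1.55 ± 0.06 in siLoxL2, Il11ra1 by 1.18 ± 0.09 and 0.99 ± 0.09, and Lifr by 1.09 ± 0.09 and 1.16 ± 0.09. Dimmer Lifr probes gave 0.51 and 0.13 in siLoxL1 and 0.39 and 0.19 in siLoxL2, so the Lifr probes disagreed in size. The receptor genes that were lower were Il27ra in siLoxL1 (-0.55 ± 0.21) and Il6ra, the IL-6 receptor, in siLoxL2 (-0.23 ± 0.09). Of the 5 colony-stimulating factor receptors 1 was higher in each, Csf2rb in siLoxL1 (0.53 ± 0.17, and 0.11 at another probe) and Csf2ra in siLoxL2 (0.24 ± 0.08), and 0 were lower. Of the 7 further ligand genes 2 were higher in siLoxL1, Ctf1 (0.27 ± 0.10) and Ctf2, whose signal was above background on 0 scr arrays, and 1 in siLoxL2, Ctf1 (0.30 ± 0.10).

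Among the transducers 7 of 9 genes were higher and 1 lower in siLoxL1, and 7 higher and 2 lower in siLoxL2. Stat3 was higher by 1.07 ± 0.12 and 0.82 ± 0.12 (0.36 and 0.33 at another probe) and Jak2 by 0.81 ± 0.08 and 0.66 ± 0.08, while the adaptor gene Gab1 (-1.41 ± 0.08 and -1.32 ± 0.08) was lower. The phosphatase gene Ptpn11 was higher by 0.64 ± 0.07 in siLoxL1 and Stat5a by 0.49 ± 0.06 in siLoxL2. Of 10 feedback inhibitors 3 were higher and 4 lower in siLoxL1, and 2 higher and 4 lower in siLoxL2. Socs5 was the furthest up (1.58 ± 0.07 and 1.46 ± 0.07), and Socs1 (-0.91 ± 0.08 and -0.64 ± 0.08), Cish (-0.74 ± 0.13 and -0.79 ± 0.13) and Sh2b3 (-0.48 ± 0.05 and -0.61 ± 0.05) were lower, although another Sh2b3 probe gave 0.19 and 0.02. Of the 22 target genes 8 were higher and 7 lower in siLoxL1, and 8 higher and 9 lower in siLoxL2. Cebpd was higher by 1.59 ± 0.04 and 1.50 ± 0.04, while Saa3 (-2.82 ± 0.38 and -2.76 ± 0.38) and the chemokine gene Ccl2 (-1.92 ± 0.12 and -1.94 ± 0.12) were lower. Lrg1 also passed as higher in both, with 0 of 4 scr arrays above background, so no fold is given.

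Between siLoxL1 and siLoxL2, where 7.11% of all genes passed, the IL-6 family receptor genes Il6ra (0.30 ± 0.06, limma adjusted p = 0.0287) and Il11ra1 (0.19 ± 0.04, adjusted p = 0.0319) were higher in siLoxL1, and 0 of the 6 were lower. Of the 9 transducer genes 1 was higher, Ptpn11 (0.22 ± 0.05, adjusted p = 0.0331), and 0 lower. Of 10 feedback inhibitors 2 were higher, Socs7 (0.23 ± 0.05) and Socs2 (0.21 ± 0.04, and -0.04 to 0.14 at other probes), and 2 lower, Ptpn6 (-0.50 ± 0.11) and Socs1 (-0.27 ± 0.05). Of 22 target genes 2 were higher, Bcl6 (0.33 ± 0.07) and Birc5 (0.25 ± 0.04), and 1 lower, Icam1 (-0.17 ± 0.04). None of the 5 colony-stimulating factor receptors or the 7 further ligands passed.

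The genes whose levels ran most like a member's were sought by Pearson correlation over the 16 arrays, each slide centred on its mean, among 22636 genes. The arrays share slides and groups, so these are descriptions. For Csf2 they were Gsap (r = 0.987), Shisal1 (0.981) and Tnfaip3 (0.98), the last encoding A20, an NF-kB feedback inhibitor. For Csf3 they were Grik4 (0.976), an unnamed probe and Tmem199 (0.968). For Il6 they were Slc25a33 (0.987), Cops2 (0.984) and Zfp119b (0.984), for Il11 Gm10516 (0.973), Ier3 (0.966) and 1700097N02Rik (0.938), and for Lif Gpr132 (0.957), Slc18a1 (0.952) and Stap2 (0.95). For Il6st they were an unnamed probe, Dpp3 (0.962) and Copg1 (0.958), for Socs3 Slc35c1 (0.933), Yap1 (0.912) and Prep (0.883), and for Csf1 Znhit3 (0.911), H4c17 (0.899) and Pdss1 (0.886).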

How the data were processed

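Total RNA was labelled with Cy3 and hybridised to 1-colour Agilent arrays of 62976 spots, per the labels. Spot intensity was deposited as read by Agilent Feature Extraction 10.7.3.1, per the file headers and the submitters' processing notes; the spot flags are 0 or 1 values (unit other), deposited with them. The authors' deposited value table holds log2 values, which from their equal distributions were quantile normalized, and served as an alternative. Genome build mm9 is that of the probe positions in the files.

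Outlier spots were left out, log2 intensity was averaged per probe, and each array's 75th percentile over its non-control probes was subtracted. A probe was above background on an array when no fewer than 50% of its usable spots were, and was kept when this held for each of the 4 arrays in any group (32476 of 55681, 58.3%). Of these 46 lacked a usable spot on some array, and 32430 were tested. Gene symbols were updated by accession through RefSeq (GRCm38.p6) for 28026 matched probes, 1651 of which changed.

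limma 3.58.1 in R 4.3.3 (lmFit, contrasts.fit, eBayes) was run on the 8 arrays of a slide for siLox minus scr and siLoxL1 minus siLoxL2, and on all 16 arrays for siLoxL1 or siLoxL2 minus scr, with Benjamini-Hochberg adjustment over all probes at 0.05. The median SD within groups was 0.18 on slide 1 and 0.106 on slide 2. Single values were tested by exact two-sided permutation (scipy 1.17.1, 70 splits). On simulated data of 32430 probes, 31.3%, 67.2% and 78.8% of probes changed by 0.5, 1 and 2 (log2) were recovered for siLox minus scr, with 5 unchanged probes called, and 56.7%, 91% and 97% for siLoxL1 minus siLoxL2, with 6. Between slides 28.4%, 71.6% and 98.5% were recovered for siLoxL1 minus scr and 32.8%, 71.6% and 100% for siLoxL2 minus scr. There 11 and 19 unchanged probes were called, 7.69% and 12.3% of the calls, against 4.07% and 3.55% within slides.

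Groups and replicate numbers come from the sample titles. Alternatives were normexp background (offset 50), quantile normalization, the authors' table, no filter, 1 probe a gene, another set of arrays in the fit, a replicate block and leaving out each array. The members, lists and alternatives were chosen with earlier results of these data known. Named genes are all member probes, up to 4 passing genes per list and comparison with the furthest fold or else the 2 brightest, the 3 most alike genes per member, and the targeted genes. Icam1, Lbp and the lower target genes in siLox minus scr are named beside these, as is Socs2 in the comparisons between slides. Beside listed genes that were not tested, 2 pathway genes are not reported here and were left out of the lists.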

Additional observations from a re-analysis of the deposited data

Results flagged for a closer look

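Of 40 sets of 4 arrays (10 member probes in 4 groups), 2 held an array far from the others by Dixon's ratio, and chance flags about 1 set in 20. Il6st in siLox replicate 4 was 4.09, while the other siLox arrays were 3.91 to 3.92. The first Csf1 NM_001113530 probe in scr replicate 4 was 4.76, while the other scr arrays were 4.62 to 4.64.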

How the results depend on the processing

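In siLox minus scr 5 member probes passed, against 3 without the filter on dim probes, 0 with a replicate block, 1 to 7 without 1 array and 7 in 1 fit of all 16 arrays. Over all probes 6851 passed, against 12844 in 1 fit of all 16 arrays, 2623 without the filter, 0 with the replicate block and 1745 to 9937 without 1 array. In siLoxL1 minus siLoxL2 0 member probes passed, against 1 with quantile normalization, and 2182 of all probes, against 1033 in 1 fit of all 16 arrays, 412 without the filter, 515 with the replicate block and 564 to 1320 without 1 array. In siLoxL1 and siLoxL2 minus scr 20253 and 20204 of all probes passed, against 34690 and 34254 without the filter. The NM_007778 probe of Csf1 turned from 0.22 in siLoxL1 minus scr to -0.08 with quantile normalization and to -0.08 in the authors' deposited table, and from 0.19 in siLoxL2 minus scr to -0.06 and -0.06; the cause was not tested. Of the other alternatives for single member probes, 505 kept the side of the threshold, 40 lost the call and 11 gained it. Among the 505 some probes that did not pass changed sign, such as Lif in siLoxL1 minus siLoxL2 (-0.18, against 0.04 without siLoxL2 replicate 2).

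Replicate numbers of siLox and scr did not pair the arrays: deviations of same-numbered arrays correlated at -0.09, -0.01, 0 and -0.15, and those of siLoxL1 and siLoxL2 at 0.11, 0.2, 0.11 and 0.04. The replicate block moved the siLox minus scr member count to 0, Il6 included (0.88, adjusted p = 0.0894), and that of siLoxL2 minus scr to 9, Il11 being lost. Signal over background limits Csf2 and Csf3 on slide 2, and 4 arrays per group limit the precision throughout.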
